A study of Homo sapiens with 6 samples.

Results

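Heme oxygenases, biliverdin reductases and the factors that control them were described here in HEK293T, an immortal line from human embryonic kidney that expresses the large T antigen of SV40. The set holds 10 genes of the 57820 identifiers in the deposited count table, chosen by symbol: the heme oxygenases HMOX1 and HMOX2, the biliverdin reductases BLVRA and BLVRB, the repressor BACH1, the activator NRF2 (gene NFE2L2), its inhibitor KEAP1, and the small MAF genes MAFG, MAFK and MAFF. All 10 had a row, and all 10 passed the filter on low counts that left 19676 genes for testing. All 6 libraries came from cells with RfxCas13d, a programmable nuclease that a short guide, the crRNA, directs to RNA. The crRNA was non-targeting in 3 libraries and directed at mCherry, a red fluorescent protein foreign to human cells, in the other 3. The labels do not state how the effector was delivered, whether the cells were a single clone, or whether they held an mCherry mRNA. The members were chosen knowing that HMOX1 and MAFG were lower in the mCherry-targeting libraries, so every difference between the groups given for the 10 genes is a description and supports nothing further.

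Heme oxygenases open the heme ring and release iron, carbon monoxide and biliverdin, which biliverdin reductases turn into bilirubin. HMOX1 is inducible and HMOX2 constitutive. BACH1, paired with a small MAF protein, represses HMOX1 until heme binds BACH1 and removes it from DNA. NRF2, paired with the same small MAF proteins, activates HMOX1 and many antioxidant genes, and KEAP1 hands NRF2 to a CUL3 ubiquitin ligase for degradation.

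Library totals lay between 21321850 and 25906275 counts. The share of counts from the non-coding RNA 7SK was under 1% in non-targeting replicate 1 and mCherry-targeting replicates 1 and 2, and over 1% in the other libraries. Of 8 genes listed as HEK293T markers, 6 matched the table and all 6 were tested, led by IGF2BP1 and LIN28B. Of 14 macrophage and blood markers, 5 were at 0 in every library, among them CD163, PTPRC, HBA1 and HBB. The summed level of those 14 genes was 0.907 to 1.77 CPM (counts scaled to library totals after TMM normalization) in the non-targeting and 0.791 to 1.31 CPM in the mCherry-targeting libraries, led by CD14 and FCER1G. Of 8 hepatocyte markers, 3 were at 0 throughout, and the sum, led by TF and ALB, was 1.77 to 2.50 and 1.57 to 2.46 CPM. Of 11 fibroblast markers, 2 were at 0 throughout (DCN and FAP). Their sum, led by COL1A1 and ACTA2, was 40.9 to 42.9 CPM in the non-targeting and 37.5 to 38.4 CPM in the mCherry-targeting libraries, without overlap. The part of that difference in the results below was not tested.

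HMOX1 (ENSG00000100292.12; chromosome 22, 35380361 to 35394214, plus strand, GRCh38) carried the largest difference among the 10 genes. Replicates 1 to 3 of the non-targeting group gave 537, 647 and 506 raw counts of it, and those of the mCherry-targeting group gave 177, 125 and 137. As CPM these were 24.4, 25.5 and 21.4 against 7.37, 4.96 and 5.81. The lowest non-targeting library thus lay well above the highest mCherry-targeting one. The fitted log2 fold change was -1.97 ± 0.15 (SE), or 3.93-fold lower in the mean, and the edgeR quasi-likelihood adjusted p over all genes tested was 0.000389. Of the 10 genes, HMOX1 was the 1 called at an adjusted p under 0.05, where 0.0102% of all genes tested were called, each of them lower. Nothing is read from this count, because the same contrast chose the gene.

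The spread of HMOX1 between libraries of a group was 9.01% of the mean (coefficient of variation) in the non-targeting and 20.2% in the mCherry-targeting libraries. Counting error alone gives 4.21% and 8.27% at these counts. Within the libraries with a 7SK share under 1%, HMOX1 was 24.4 CPM in the 1 non-targeting library and 6.16 CPM in the mean of the 2 mCherry-targeting ones, 3.95-fold lower. Among those over 1% the values were 23.4 CPM (mean of 2 libraries) and 5.81 CPM (1 library), 4.03-fold lower. The difference was therefore as large within either set of libraries as over all 6. Bulk RNA cannot tell fewer HMOX1-expressing cells from less HMOX1 RNA per cell.

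HMOX2 (ENSG00000103415.7; chromosome 16, 4474690 to 4510347, plus strand, GRCh38), the constitutive enzyme, did not follow HMOX1. It stood at 40.1, 46.6 and 51.8 CPM in the non-targeting and 40.3, 38.5 and 46.0 CPM in the mCherry-targeting libraries. The groups overlapped, with a log2 fold change of -0.15 ± 0.11 (SE), and of -0.028 ± 0.097 after correction for GC content. NMRAL1 lies over part of HMOX2 on the opposite strand, and since the strand setting of the counting is not known, reads of the 2 genes may be mixed.

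The balance of the 2 heme oxygenases was compared per kilobase of the longest annotated transcript. HMOX1 stood to HMOX2 as 0.717, 0.645 and 0.486 in the non-targeting libraries and as 0.215, 0.152 and 0.149 in the mCherry-targeting ones, as the plot of ratios shows. Summed, both enzymes reached 34.5 ± 2.15 CPM per kilobase (SD, n = 3) in the non-targeting and 22.7 ± 2.00 (SD, n = 3) with the mCherry crRNA. The sum was 1.52-fold lower there, without overlap. With the longest length HMOX2 was the larger part of the sum, and the sum differed less than HMOX1 itself. With the median transcript length the ratio of HMOX1 to HMOX2 was 0.921 ± 0.176 and 0.257 ± 0.0562 (SD, n = 3 each). It was 1.07 in non-targeting replicate 1, so which enzyme is the larger part in that library rests on the length chosen. The length chosen scales this ratio alike in every library, so it cannot change the overlap or the fold between the groups.

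The biliverdin reductases overlapped between the groups. BLVRA (ENSG00000106605.6; chromosome 7, 43758680 to 43807342), which makes bilirubin IXα, stood at 16.2, 20.5 and 20.3 CPM in the non-targeting and 16.7, 17.1 and 18.2 CPM in the mCherry-targeting libraries. BLVRB (ENSG00000090013.5; chromosome 19, 40447765 to 40465840), which also acts as a flavin reductase, stood at 13.8, 17.2 and 18.7 CPM and at 15.1, 15.2 and 13.6 CPM. In both genes non-targeting replicate 1 was the lowest library of its group, and it was near the mCherry-targeting values. Their log2 fold changes were -0.13 ± 0.12 for BLVRA and -0.18 ± 0.13 for BLVRB (SE). The ratio of BLVRA to BLVRB per kilobase was 1.38 ± 0.0695 and 1.42 ± 0.158 (SD, n = 3 each). Heme oxygenases to biliverdin reductases, each summed per kilobase, stood as 1.23 ± 0.101 to 1 in the non-targeting and 0.891 ± 0.0813 to 1 in the mCherry-targeting libraries (SD, n = 3 each). These ratios did not overlap between the groups, and in them HMOX1 was the 1 gene whose own groups did not overlap.

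BACH1 (ENSG00000156273.11; chromosome 21, 29194071 to 29630751), the heme-sensing repressor, had the highest CPM of the 10 genes. It stood at 80.7, 72.6 and 65.4 CPM in the non-targeting and 85.3, 80.8 and 80.6 CPM in the mCherry-targeting libraries. Non-targeting replicate 1 reached the level of the mCherry-targeting libraries, so the groups overlapped. The log2 fold change was 0.17 ± 0.09 (SE), and -0.039 ± 0.069 after GC correction, which turned its sign. BACH1 has a GC content of 38.6%, the lowest of the 10 genes.

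NFE2L2 (ENSG00000116044.11; chromosome 2, 177227595 to 177392697), the gene of NRF2, stood at 60.5, 50.8 and 50.5 CPM in the non-targeting and 60.8, 53.3 and 50.6 CPM in the mCherry-targeting libraries. Both groups covered nearly the same range. Its log2 fold change was 0.026 ± 0.10 (SE), and -0.024 ± 0.089 after GC correction. A sense transcript with no symbol (ENSG00000213963.2) overlaps NFE2L2 and AGPS touches its end on the opposite strand. The mRNA level of NFE2L2 says nothing of NRF2 protein, which is set largely by its degradation.

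KEAP1 (ENSG00000079999.9; chromosome 19, 10486120 to 10503741), the adaptor that marks NRF2 for degradation, stood at 34.4, 41.7 and 48.5 CPM in the non-targeting and 34.3, 34.4 and 35.4 CPM in the mCherry-targeting libraries. The mCherry-targeting libraries were close together at the level of non-targeting replicate 1, below the other non-targeting libraries. The log2 fold change was -0.26 ± 0.12 (SE, edgeR adjusted p = 0.305), and -0.097 ± 0.098 after GC correction. Among libraries with a 7SK share under 1%, KEAP1 was 34.4 CPM in either group. Among those over 1% it was 45.1 and 35.4 CPM, 1.27-fold lower. The set under 1% held 1 non-targeting library. With a term for the 7SK share the KEAP1 log2 fold change was -0.18 ± 0.098 (SE). The part of the 7SK share and of GC content (60.3% in KEAP1) in the difference was not tested. Without non-targeting replicate 1 KEAP1 was called (edgeR adjusted p = 0.0269), as were 8.98% of all genes tested in that fit.

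Ratios between the regulators overlapped between the groups. BACH1 to NFE2L2 per kilobase was 0.669 ± 0.0337 and 0.744 ± 0.0477, and NFE2L2 to KEAP1 was 1.39 ± 0.388 and 1.64 ± 0.181 (SD, n = 3 each, non-targeting first). With the median in place of the longest transcript length, BACH1 to NFE2L2 was 1.87 ± 0.0944 and 2.08 ± 0.134, so which of the 2 is the more abundant rests on the length chosen. NFE2L2 to KEAP1 ranged from 1.08 to 1.82 within the non-targeting libraries alone.

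The small MAF genes encode short basic leucine zipper proteins that lack an activation domain and serve both NRF2 and BACH1 as DNA-binding partners. MAFG (ENSG00000197063.6; chromosome 17, 81918270 to 81927714) stood at 47.5, 49.7 and 53.3 CPM in the non-targeting and 38.3, 36.9 and 39.1 CPM in the mCherry-targeting libraries. Its groups did not overlap, and each was tight, with a spread of 5.84% and 3.00% of the mean against counting errors of 2.90% and 3.29%. The log2 fold change was -0.40 ± 0.09 (SE), or 1.32-fold lower in the mean. Over all genes tested the edgeR adjusted p was 0.193, so MAFG was not called, although it ranked 50 of 19676 by p. It was 1.26-fold lower among libraries with a 7SK share under 1% and 1.32-fold lower among those over 1%. After GC correction the log2 fold change was -0.27 ± 0.08. DESeq2 called MAFG (adjusted p = 0.0306) along with 1.45% of the genes to which it gave an adjusted p. EdgeR without non-targeting replicate 1 gave MAFG an adjusted p of 0.0129, in a fit that called 8.98% of all genes tested. In that fit both remaining non-targeting libraries have over 1% of 7SK, so its share and the group cannot be fully told apart. SIRT7 lies over part of MAFG on the same strand, and its own log2 fold change was 0.038 ± 0.15.

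MAFF (ENSG00000185022.7; chromosome 22, 38200767 to 38216511), the least abundant member, had 77, 73 and 98 counts in the non-targeting and 62, 38 and 59 in the mCherry-targeting libraries. As CPM these were 3.49, 2.88 and 4.14 against 2.58, 1.51 and 2.50, without overlap but with a narrow gap. Counting error alone was 11.0% and 13.7% of the mean. The log2 fold change was -0.67 ± 0.24 (SE, edgeR adjusted p = 0.232). PLA2G6, with 6252 counts over the 6 libraries against 407 for MAFF, lies over part of it on the opposite strand and had a log2 fold change of -0.42 ± 0.09. Without a known strand setting, part of the MAFF counts may come from PLA2G6.

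MAFK (ENSG00000198517.5; chromosome 7, 1530714 to 1543043) stood at 12.8, 16.1 and 13.4 CPM in the non-targeting and 15.1, 13.7 and 12.1 CPM in the mCherry-targeting libraries, and the groups overlapped. Its log2 fold change was -0.046 ± 0.13 (SE), and 0.12 ± 0.14 after GC correction. Per kilobase MAFG made up 65.5% ± 1.71 of the 3 small MAF mRNAs in the non-targeting and 61.6% ± 2.55 in the mCherry-targeting libraries (SD, n = 3 each). The share of MAFK ranged from 25.1% to 30.8% in the non-targeting and from 29.6% to 34.9% in the mCherry-targeting libraries, and both shares overlapped between the groups. With the median transcript length the mean share of MAFK was 14.4% in the non-targeting and 17.8% in the mCherry-targeting libraries. The sum of the 3 was 15.2 ± 0.807 and 12.3 ± 0.534 CPM per kilobase (SD, n = 3 each), 1.24-fold lower and without overlap.

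Taken as a set, 8 of the 10 genes had a log2 fold change below 0, with a median of -0.16, against a median of -0.0037 over all genes tested, of which 50.6% were below 0. Groups did not overlap, with mCherry-targeting below, in 3 of the 10 genes (HMOX1, MAFG and MAFF), against 9.37% of all genes tested, and no member lay above, against 12.6%. HMOX1 and MAFG were known to be lower when the members were chosen, so nothing is read from these counts. After GC correction 9 of the 10 were below 0, but the median was -0.066, against -0.014 over all genes. Apart from HMOX1, MAFG and MAFF, every GC-corrected value of a member lay between -0.097 and 0.12, as the plot of fold changes shows.

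**Figure D1:**
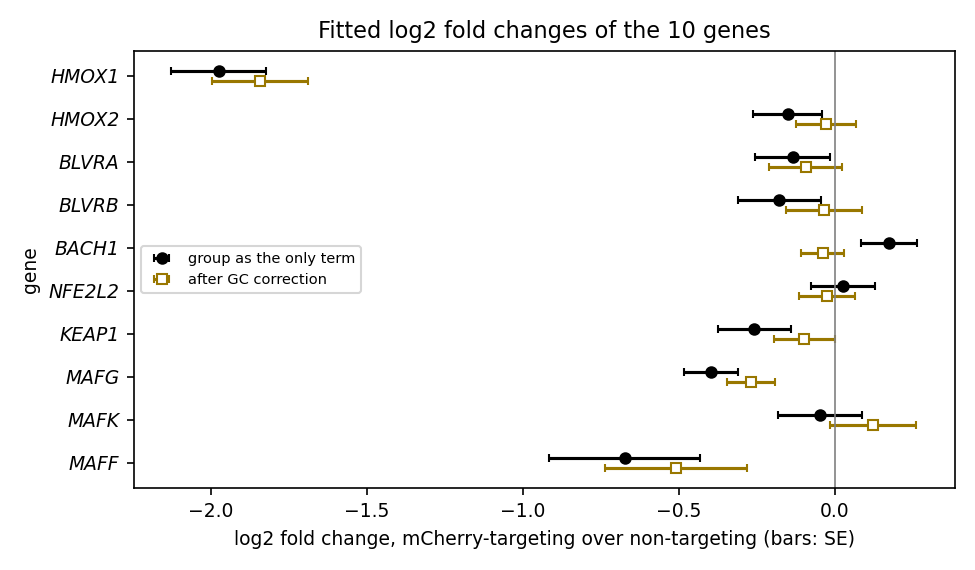
Fitted log2 fold change of each of the 10 genes, mCherry-targeting over non-targeting, with the SE as bars, for the fit with group as the only term (filled circles) and after GC correction (open squares). HMOX1 stands at -1.97 and -1.84, MAFG at -0.40 and -0.27, and MAFF at -0.67 and -0.51.

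Levels of the 10 genes within the non-targeting libraries were not part of how they were chosen, and were compared as CPM per kilobase of the longest transcript. From high to low the means were 21.5 ± 2.73 for HMOX2, 18.9 ± 2.01 for NFE2L2, 16.4 ± 2.11 for BLVRA, 14.0 ± 2.38 for KEAP1 and 13.0 ± 1.17 for HMOX1. Then came BACH1 with 12.6 ± 1.33, BLVRB with 11.9 ± 1.84, MAFG with 9.95 ± 0.581, MAFK with 4.18 ± 0.520 and MAFF with 1.07 ± 0.192 (SD, n = 3 each). Neighbours overlapped in their libraries from HMOX2 down to MAFG. MAFG was above MAFK, and MAFK above MAFF, in every library. In the mCherry-targeting libraries HMOX1 was the ninth of the 10 genes in each library, at 3.32 ± 0.669 CPM per kilobase, between MAFK (4.06 ± 0.454) and MAFF (0.669 ± 0.182). Among 18893 genes tested with a known length, HMOX1 ranked 5587 by mean level in the non-targeting and 11775 in the mCherry-targeting libraries, while HMOX2 ranked 3354 and 3789. With the median in place of the longest transcript length, BACH1 came first and HMOX1 kept place 5 in the non-targeting libraries, so the order above MAFK rests on the length chosen.

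Promoter windows of RefSeq (GRCh38.p14, 250 bases before to 50 after a start) were held for 8 of the 10 genes, in 14 windows, but not for HMOX1 and MAFK. They were searched on both strands for TGACNNNGC, the core of the antioxidant response element to which NRF2 and small MAF bind, and for TGAGTCA, the AP-1 type site that lies inside longer MAF elements. The first was in 2 of the 14 windows, 1 of KEAP1 and 1 of MAFF, and in 13.3% of all 35116 windows. The second was in 1 window, of BACH1, and in 4.95% of all windows. The 30 bases around each match are shown because they mark which of the regulators' own promoters hold such letters. They read 5′ to 3′ on the strand of the gene, with the match in capitals, and a match to the opposite strand appears as its reverse complement.
KEAP1, chr19:10502806-10502835, minus strand: acttttattgTGACACGGCgggcgcccggc
KEAP1, chr19:10502783-10502812, minus strand, match on the opposite strand: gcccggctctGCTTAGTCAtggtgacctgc
MAFF, chr22:38201862-38201891, plus strand, match on the opposite strand: cttccaggggGCGGGGTCAtacgggggcgg
BACH1, chr21:29298863-29298892, plus strand: cgcggaaggagTGAGTCAcctgaccgctgc
The matches begin 54 and 31 bases before the start in KEAP1, 122 in MAFF and 48 in BACH1. They are matches of letters and no measure of binding. HMOX1, the 1 member called, had no window, so matches cannot be set against calls here.

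Other targets of NRF2 and BACH1 were taken from a list of 40 genes, none of them a member, of which 33 were tested. By edgeR 0 of the 33 were called in either direction, DESeq2 called 1 (PIR) and limma-voom called 0. Over all genes these methods called 0.0102%, 1.45% (of genes given an adjusted p) and 0.0102%. At an unadjusted edgeR p under 0.05 there were 3 lower genes (PIR, SQSTM1 and EPHX1) and 0 higher, against 6.09% of all genes tested that were lower and 10.0% that were higher at that p. Of the 33, 23 were below 0 and 10 above, with a median log2 fold change of -0.085 and a range from -0.79 to 0.22. After GC correction 24 were below 0 and the median was -0.092. Without non-targeting replicate 1 edgeR called 6 of the list (AKR1B1, CBR1, PIR, SLC7A11, SQSTM1 and TKT), 1 of them higher, where calls over all genes tested rose to 8.98%.

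Of the 8 best known targets, all but SRXN1 were tested. EdgeR called none of them, where it called 0.0102% of all genes tested. NQO1, a quinone reductase, was low in these cells, at 2.55 ± 0.914 and 2.52 ± 0.348 CPM (SD, n = 3 each). GCLC, the catalytic subunit of glutamate-cysteine ligase, stood at 47.2 ± 5.23 and 52.1 ± 3.67 CPM, with a log2 fold change of 0.14 ± 0.10 (SE). The cystine transporter gene SLC7A11 stood at 127.0 ± 29.1 and 148.0 ± 15.6 CPM, with a log2 fold change of 0.22 ± 0.15, and of -0.049 after GC correction. GCLM and TXNRD1 had log2 fold changes of 0.0061 ± 0.10 and 0.0089 ± 0.086, and of -0.24 ± 0.098 and -0.063 ± 0.095 after GC correction (SE). SRXN1, sulfiredoxin, was under the filter on low counts, at 0.203 ± 0.120 and 0.363 ± 0.287 CPM.

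Ferritin stores the iron that heme oxygenase releases. Its heavy chain gene FTH1 stood at 207.8 ± 42.6 and 186.3 ± 44.4 CPM and its light chain gene FTL at 163.9 ± 31.7 and 123.8 ± 32.7 CPM (SD, n = 3 each), overlapping in both. Their log2 fold changes were -0.16 ± 0.19 for FTH1 and -0.41 ± 0.20 for FTL (SE), and edgeR called neither. PIR, which encodes the iron-binding nuclear protein pirin, was the target with the lowest log2 fold change. It stood at 12.1 ± 1.96 CPM in the non-targeting and 7.05 ± 1.62 CPM in the mCherry-targeting libraries (SD, n = 3 each), without overlap. Its log2 fold change was -0.79 ± 0.18 (SE, edgeR adjusted p = 0.193), and -0.74 after GC correction.

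**Figure D2:**
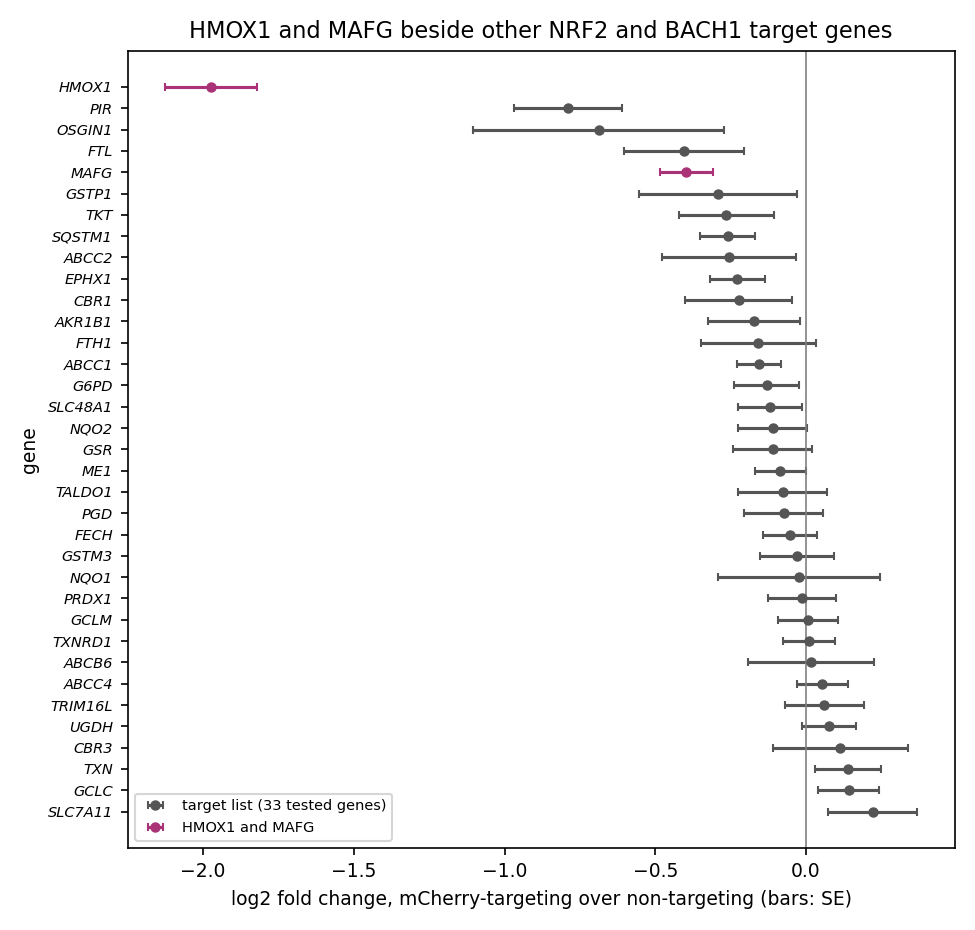
Fitted log2 fold change, mCherry-targeting over non-targeting, with the SE as bars, of the 33 tested genes of the target list (grey) and of HMOX1 and MAFG (purple), with the lowest at the top. HMOX1 at -1.97 lies apart from the list, whose lowest gene is PIR at -0.79 and whose highest is SLC7A11 at 0.22.

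The machinery that degrades NRF2 was read from a list of 16 genes, all tested, with 0 called by edgeR, DESeq2 or limma-voom. Over all genes these methods called 0.0102%, 1.45% (of genes given an adjusted p) and 0.0102%. At an unadjusted edgeR p under 0.05, 3 of the list were lower and 3 higher, against 6.09% and 10.0% of all genes tested. The median log2 fold change of the list was -0.039, with 11 genes below 0. The 2 with the smallest p were VCP, the ATPase that extracts ubiquitylated proteins, and CUL3, the scaffold of the ligase that KEAP1 serves. VCP stood at 224.8 ± 21.2 and 179.8 ± 12.5 CPM, with a log2 fold change of -0.32 ± 0.09 (edgeR adjusted p = 0.20), and of -0.27 after GC correction. CUL3 stood at 98.4 ± 8.58 and 119.8 ± 5.13 CPM, with a log2 fold change of 0.28 ± 0.09 (edgeR adjusted p = 0.202) that was 0.045 after GC correction, at a GC content of 37.5%.

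Relatives of the members in the CNC, BACH and large MAF families numbered 8, of which 7 were tested. EdgeR, DESeq2 and limma-voom called 0 of them, against 0.0102%, 1.45% and 0.0102% of all genes. At an unadjusted edgeR p under 0.05 there was 1 (NFE2L1, lower), against 6.09% of all genes tested that were lower and 10.0% that were higher. NFE2L1, which encodes NRF1, a regulator of proteasome genes, was the most abundant at 165.5 ± 8.82 and 144.2 ± 0.921 CPM, with a log2 fold change of -0.20 ± 0.08. NFE2L3 stood at 13.9 ± 1.38 and 16.2 ± 0.958 CPM, and BACH2, the relative of BACH1 best known from B cells, at 31.0 ± 2.36 and 28.2 ± 1.56 CPM. Among the large MAF genes, MAF was at 13.1 ± 0.104 and 14.0 ± 1.22 CPM, and MAFA at 6.23 ± 1.07 and 5.70 ± 1.28 (SD, n = 3 each). NRL, a photoreceptor factor, had a log2 fold change of -0.38 ± 0.27 (SE). NFE2, the erythroid member, was under the filter at 0.266 ± 0.0353 and 0.257 ± 0.160 CPM.

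Genes that deliver, carry or take up heme and its products formed a list of 16, with 13 tested. EdgeR, DESeq2 and limma-voom called 0 of them, against 0.0102%, 1.45% (of genes given an adjusted p) and 0.0102% of all genes. At an unadjusted edgeR p under 0.05, 1 was lower and 0 higher, against 6.09% and 10.0% of all genes tested. The median log2 fold change of the list was -0.12, and -0.0048 after GC correction. The 2 with the smallest p were LRP1, a receptor that takes up heme bound to hemopexin (-0.40 ± 0.14, edgeR adjusted p = 0.228), and PGRMC1, a heme-binding membrane protein (0.20 ± 0.10, edgeR adjusted p = 0.357). After GC correction LRP1 was at -0.25 and PGRMC1 at 0.11. Other factors linked to HMOX1 transcription formed a list of 18, all tested, with a median log2 fold change of -0.11. Of these, too, 0 were called by edgeR, DESeq2 or limma-voom, against the same shares of all genes called. At an unadjusted edgeR p under 0.05, 3 were lower and 2 higher, against the same 6.09% and 10.0% of all genes tested. The 2 with the smallest p were NR1D1, the heme-binding repressor REV-ERBα, and JUND, an AP-1 subunit. NR1D1 stood at 6.56 ± 0.618 and 4.41 ± 0.0829 CPM (SD, n = 3 each), without overlap, with a log2 fold change of -0.57 ± 0.15 (edgeR adjusted p = 0.194). JUND stood at 94.3 ± 5.26 and 73.6 ± 12.9 CPM, with a log2 fold change of -0.36 ± 0.11 (edgeR adjusted p = 0.209), at a GC content of 69.7%. After GC correction NR1D1 was at -0.43 and JUND at -0.20. Without non-targeting replicate 1 edgeR called 7 genes over these 4 lists (CREB1, CUL3, HIF1A, HSF1, PGAM5, SQSTM1 and VCP), 3 of them higher, in the fit that called 8.98% of all genes tested.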

How the data were processed

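The values are the authors' unnormalized gene counts for each library. The reads were handled with cutadapt 4.4 and STAR 2.7.4a on build hg19, per the submitters' processing notes. Which tool counted the reads, and whether by strand, was not given in the sources used here. Per the labels' protocols, RNA was poly(A)-enriched and libraries were strand-marked. Identifiers were matched without version to GENCODE 29 on GRCh38 for coordinates, length and GC content of the longest transcript, and to a table of symbols. The members and gene lists were chosen with earlier results of these data known. The labels call the replicates biological but do not say that they were separate cultures, so p-values may measure only a technical spread between these samples.

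Counts were fitted with edgeR 4.0.16 in R 4.3.3 (TMM, filterByExpr, quasi-likelihood F test with robust dispersion, group as the only term), with Benjamini-Hochberg adjustment over all 19676 genes tested and calls at an adjusted p under 0.05. The fit was tested on simulated data. CPM used TMM-scaled totals. Alternatives were DESeq2 1.42.0, limma-voom (limma 3.58.1), other scalings and filters, a replicate block, a GC correction (a loess trend of span 0.5 on GC content removed per library), a term for a 7SK share above or below 1%, and each library left out. GC content was known for 96.0% of genes tested. Named genes were the 10 members, 8 preset targets, tested relatives, any called list gene, the 2 smallest p of each other list and the 5 genes most like HMOX1. EPHX1, PIR, PLA2G6, NMRAL1, SIRT7 and SQSTM1 were named after their values were seen. A few genes that this rule names are not reported here.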

Additional observations from a re-analysis of the deposited data

How the results depend on the processing

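HMOX1 was lower and called in all 18 alternative fits, with log2 fold changes from -2.14 to -1.84 and adjusted p of at most 0.0149; leaving out each library in turn gave -2.14 to -1.85. Calls over all genes rose from 2 of 19676 (0.0102%) to 597 (1.68%) with no filter, 169 (1.45% of genes with an adjusted p) by DESeq2, 712 (3.62%) with the 7SK term, 43 (0.219%) with that term and GC correction, 1209 (6.14%) with the replicate block and 1806 (8.98%) without non-targeting replicate 1, so the counts that follow are to be read against them. The 1 member called became 2 with no filter, DESeq2 or the 7SK term (HMOX1 and MAFG each time), and 3 with the replicate block (HMOX1, MAFG and MAFF); without single libraries it was 1 to 3, with 3 (HMOX1, MAFG and KEAP1) without non-targeting replicate 1. Of the target list, 0 called became 1 with no filter, DESeq2, the 7SK term, and that term with GC correction, 2 with the replicate block (FTL and PIR), and 0 to 6 without single libraries (6 without non-targeting replicate 1). The other lists went from 0 to 3 with no filter (JUND, LRP1 and VCP) and 3 with the 7SK term (JUND, NR1D1 and PGRMC1). With the replicate block they reached 6 (CUL3, FTL, HIF1A, JUND, NR1D1 and VCP), and without single libraries 0 to 7 (7 without non-targeting replicate 1). The cause was not tested.

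Signs turned for 4 members, none of them called in any fit. HMOX2 was 0.046 with the 7SK term and GC correction. BACH1 was -0.039 with GC correction, alone, with the block or with the 7SK term. NFE2L2 was -0.024 with GC correction, alone or with the block, -0.044 with the 7SK term, -0.074 with both, and -0.052 to 0.12 without single libraries. MAFK was 0.12 with GC correction, alone or with the block, 0.080 with the 7SK term and GC correction, and -0.13 to 0.060 without single libraries. MAFF could not be fitted at a mean CPM of at least 5. Same-numbered libraries deviated together in pairs 1 and 3 (r = 0.388 and 0.617) but not in pair 2 (-0.029). Unlike-numbered pairs ranged from -0.616 to 0.320, the highest being non-targeting replicate 1 with mCherry-targeting replicate 2. The block therefore pairs libraries by number only. Counting error was largest for MAFF. Of the 5 genes most like HMOX1, library sizes alone kept 2 (0 with group means subtracted), while Spearman's correlation put 2 (and 2) among 51 and 24 tied genes. Sums per kilobase, and the ratio of summed heme oxygenases to summed biliverdin reductases, kept their direction between the groups with the median transcript length. That alternative was chosen after seeing the data. Ratios of 2 single genes could not change direction, since the length scales them alike in every library.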

Other observations

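The genes whose log2 CPM followed HMOX1 most closely over the 6 libraries, among 12272 genes with a mean CPM of at least 5, were SLC37A1 (Pearson's r = 0.992), TBKBP1 (0.989), RNF19B (0.988), MORN1 (0.987) and MLLT11 (0.986). Their log2 fold changes (mCherry-targeting over non-targeting) ran from -0.46 ± 0.10 (MLLT11) to -0.20 ± 0.09 (MORN1). Of the other members, without MAFF, which was under that CPM and not ranked, MAFG came nearest, in place 65 with r = 0.945. BACH1 had r = -0.62. Once each group mean was subtracted, the nearest 5 included TSNAX (0.990), OSCP1 (0.988), LINC01521 (0.988) and LRR1 (0.985), none of them among the first 5. MAFG then had r = -0.074 and BACH1 r = 0.52, so the sign of both turned. All points share the 6 libraries and their depth and base composition, so these values are descriptions. With library sizes alone 2 of the first 5 genes and 0 of the second 5 stayed among the nearest 5. Spearman's correlation over 6 libraries gave no defined nearest 5, since 51 genes, and 24 with group means subtracted, tied at or above place 5.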
